A study of Mus musculus with 14 samples.

Results

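The genes described here are 9 liver genes of glucose production, glucokinase regulation and the insulin response. They were taken by symbol from the deposited table: Pck1, Fbp1, Pcx, Gckr, Slc2a2, Tat, Gys2, Irs1 and Irs2, which are 9 of its 57180 genes. All 9 were among the 16201 genes that passed the filter on low counts. RNA was sequenced from whole liver of 14 littermate mice, labelled by Pkd1 genotype as Homo (4 livers), Het (4) and WT (6), with 1 numbered mouse per library. Pkd1 encodes polycystin 1, a ciliary membrane protein mutated in polycystic kidney disease. All 3 genotypes carry Cre in the label, the WT controls included, and all were kept on normal chow. Neither the allele of Pkd1 nor the driver of Cre is named in the labels, which leaves the targeted cells unknown. The labels give no age, sex, litter, batch, feeding state or hour of collection, so none of these could enter a fit.

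The liver releases glucose between meals by breaking down glycogen and by gluconeogenesis, which builds glucose from lactate, glycerol and amino acids. Glucagon, acting through cAMP, and glucocorticoids raise transcription of gluconeogenic genes, and insulin, signalling through its receptor and the docking proteins IRS1 and IRS2, lowers it. After a meal glucose enters hepatocytes through GLUT2, is phosphorylated by glucokinase and is stored as glycogen.

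No difference between genotypes passed the test for any of the 9 genes. Pck1, Tat and Irs2 nevertheless spanned 7.77-fold, 7.74-fold and 7.44-fold over the 14 livers, with a wide spread among livers of the same genotype. Fbp1 and Pcx, enzymes of the same glucose-producing path as Pck1, each spanned 1.22-fold.

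The promoters of those 3 widely varying genes are shown because the results turn on them. Each runs from 250 bases before to 50 bases after the transcription start, read 5′ to 3′ on the gene's own strand, from RefSeq on GRCm38.p6. Pck1 lies at chr2:173152823-173153122 on the plus strand, Tat at chr8:109990186-109990485 on the plus strand and Irs2 at chr8:11008880-11009179 on the minus strand. Capitals mark TGACG, the core of the cAMP response element, which reads CGTCA here because it lies on the other strand, and CACGTG, the E-box bound by clock and other helix-loop-helix factors.
Pck1: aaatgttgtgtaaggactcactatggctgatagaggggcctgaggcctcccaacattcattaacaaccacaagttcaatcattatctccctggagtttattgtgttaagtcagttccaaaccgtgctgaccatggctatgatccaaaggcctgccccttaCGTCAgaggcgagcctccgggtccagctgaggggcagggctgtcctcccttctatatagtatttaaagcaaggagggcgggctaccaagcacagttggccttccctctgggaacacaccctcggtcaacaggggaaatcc
Tat: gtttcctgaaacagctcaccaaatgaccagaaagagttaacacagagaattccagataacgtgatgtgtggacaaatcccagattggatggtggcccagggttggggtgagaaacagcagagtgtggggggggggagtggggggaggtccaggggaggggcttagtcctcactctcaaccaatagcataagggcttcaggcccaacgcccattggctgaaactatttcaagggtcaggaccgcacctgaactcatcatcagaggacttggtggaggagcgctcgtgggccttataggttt
Irs2: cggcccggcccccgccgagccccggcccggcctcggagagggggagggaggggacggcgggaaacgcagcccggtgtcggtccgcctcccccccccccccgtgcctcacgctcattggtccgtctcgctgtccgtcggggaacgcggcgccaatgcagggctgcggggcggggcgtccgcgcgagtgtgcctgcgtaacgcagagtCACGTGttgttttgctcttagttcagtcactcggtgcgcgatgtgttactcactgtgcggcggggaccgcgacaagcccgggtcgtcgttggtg
The TGACG core stood 90 bases before the Pck1 start, and the E-box stood 44 bases before the Irs2 start. Neither motif was found in the Tat window.

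Windows were found for 8 of the 9 genes, with 2 for Pcx, which made 9 windows. Motifs were searched on both strands and set against all 32851 windows of this length. TGACG, present in 20.8% of all windows, was in those of Pck1 and Irs1. CACGTG, present in 7.15%, was in those of Irs2, Irs1 and 1 window of Pcx; in Irs1 it overlapped the TGACG match. The full cAMP response element TGACGTCA (1.79% of all windows), which contains TGACG, the forkhead motif TGTTTAC (3.65%) and the palindromic glucocorticoid response element (0.475%) matched none of the 9 windows. A match is a run of letters and was not tested as a binding site.

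Total estimated counts per library were 18573739 to 28431875 in Homo, 22833853 to 26245475 in Het and 25238140 to 40925973 in WT. Levels are given as CPM, the count scaled to the effective library size. Pkd1 itself was at 23.1 to 26.4 CPM in Homo, 28.1 to 36.7 CPM in Het and 31.4 to 37.7 CPM in WT. Its Homo over WT fold was 0.728 (adjusted p = 0.0246, edgeR quasi-likelihood test with Benjamini-Hochberg adjustment), and all 4 Homo livers lay below every WT liver. The liver identity of the samples was checked with 5 measured hepatocyte markers, none of which was at 0. Summed markers of adipose tissue, pancreas and kidney were under 1 CPM in every library. Lymphocyte markers (6 of 6 measured, 4 of them under 1 CPM on average) summed to 32.3 to 39.3 CPM in Homo and 29.8 to 33.6 CPM in Het. In WT they summed to 16.9 to 29.3 CPM, so both mutant groups lay above WT, Het only just. The 16.9 CPM was WT liver 1 alone, and the next lowest WT liver was at 27.35 CPM. Summed markers of Kupffer cells, sinusoidal endothelium and stellate cells overlapped between each mutant group and WT. None of these sums was tested. In whole tissue, fewer cells of a type and less RNA per cell cannot be told apart.

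The 9 genes differed widely in level per length of annotated exons. Tat, which breaks down tyrosine and is a classical glucocorticoid-induced liver gene, averaged 441.5 CPM per kb over the 14 livers. Pck1, the enzyme that makes phosphoenolpyruvate and commits carbon to glucose, averaged 385 CPM per kb, and Fbp1, fructose-1,6-bisphosphatase, 297 CPM per kb. These top 3 overlapped across livers, since Tat ran from 133 to 1029 CPM per kb. Gys2, the liver glycogen synthase, averaged 73.8 CPM per kb, Pcx, the mitochondrial pyruvate carboxylase, 66.0, and Slc2a2, which encodes GLUT2, 58.0; these 3 overlapped too. Gckr, the nuclear inhibitor of glucokinase, was at 18.1 to 24.8 CPM per kb, below every liver's value for those 6 genes. Irs1 averaged 3.82 and Irs2 2.08 CPM per kb, and their ranges overlapped, from 3.10 to 4.84 for Irs1 and from 0.781 to 5.82 for Irs2. Exons of Irs1 and Irs2 overlap opposite-strand genes (Gm9747 and 9530052E02Rik), and the use of strand in counting is not stated, so those reads cannot be told apart.

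Pck1 (ENSMUSG00000027513, chromosome 2) was at 295, 1232, 1189 and 2060.0 CPM in Homo livers 1 to 4 and at 734, 1880.0, 2289.7 and 1217 CPM in Het livers 1 to 4. The WT livers ran from 701 through a median of 1262 to 1917 CPM. Homo liver 1 was the lowest of all 14 and the groups overlapped widely. The means were 1194 ± 721 CPM in Homo, 1530.2 ± 691 CPM in Het and 1262 ± 472 CPM in WT (SD over 4, 4 and 6 livers). The Homo over WT fold was 0.946 (95% interval 0.501 to 1.79, edgeR adjusted p = 0.998), and its log2 value of -0.08 became 0.24 without Homo liver 1. The Het over WT fold was 1.21 (0.645 to 2.28, edgeR adjusted p = 0.998).

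Fbp1 (ENSMUSG00000069805, chromosome 13), which acts late in gluconeogenesis, was at 540.0, 518, 569.6 and 498 CPM in Homo livers, at 480.2, 492, 489 and 479.8 CPM in Het livers, and at 469 to 537 CPM in WT livers (median 498). Every Homo liver lay above every Het liver, and both overlapped WT. Pcx (ENSMUSG00000024892, chromosome 19), which turns pyruvate into oxaloacetate, was at 303, 300.2, 303 and 298 CPM in Homo livers, 315, 342, 314 and 321 CPM in Het livers, and 279.8 to 332 CPM in WT livers (median 326). Here every Homo liver lay below every Het liver. The Homo over Het fold was 1.10 for Fbp1 (0.995 to 1.21, edgeR adjusted p = 0.965) and 0.932 for Pcx (0.844 to 1.03, edgeR adjusted p = 0.976). The exact permutation p was 0.0286 for both, the smallest that 4 against 4 livers allow. Of all genes tested, 2.94% likewise did not overlap between Homo and Het, against these 2 of 9.

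Slc2a2 (ENSMUSG00000027690, chromosome 3) was at 409.9, 301, 341 and 315 CPM in Homo livers, 334, 264, 315 and 328 CPM in Het livers and 301 to 392 CPM in WT livers (median 342). The highest liver was Homo 1 and the lowest Het 2, with all 3 groups overlapping. Its Homo over WT fold was 0.990 (0.854 to 1.15), which turned above 1 when libraries were scaled by their totals alone. Gckr (ENSMUSG00000059434, chromosome 5) was at 108, 87.4, 105 and 104 CPM in Homo livers, 104, 78.6, 88.5 and 101 CPM in Het livers and 85.7 to 104 CPM in WT livers (median 88.6). Homo liver 2 stood apart from the other 3 Homo livers but within the WT range. The Gckr fold was 1.10 in Homo over WT (0.962 to 1.25) and 1.01 in Het over WT (0.884 to 1.15). For both genes each genotype contrast had an adjusted p of at least 0.981 (edgeR).

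Gys2 (ENSMUSG00000030244, chromosome 6) was at 194, 171, 192 and 234 CPM in Homo livers, 159.9, 156, 187 and 186 CPM in Het livers and 178 to 275 CPM in WT livers (median 201). The Het livers were low, with 2 of 4 below every WT liver, and the highest liver was WT 4. The Het over WT fold was 0.819 (0.688 to 0.975), with an unadjusted p of 0.0277 and an adjusted p of 0.998 (edgeR) and an exact permutation p of 0.0524. It was the 1 value among the 27 fold changes with an unadjusted p under 0.05, a level that 4.67% of all genes tested reached in Het against WT. The Homo over WT fold was 0.940 (0.790 to 1.12).

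Tat (ENSMUSG00000001670, chromosome 8) was at 319.8, 487, 870.0 and 2475 CPM in Homo livers and at 507, 1109, 2331 and 1203 CPM in Het livers. The WT livers ran from 536 through a median of 987 to 1289.8 CPM. The lowest and the highest of all 14 livers were both Homo, livers 1 and 4. The means were 1038 ± 986 CPM in Homo, 1288 ± 761 CPM in Het and 927 ± 291 CPM in WT (SD). The fold was 1.12 in Homo over WT (0.540 to 2.32) and 1.39 in Het over WT (0.673 to 2.87), each with an adjusted p of 0.998 (edgeR). Without Homo liver 4 the Homo over WT value moved on the log2 scale to -0.73, against 0.16 with it.

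The insulin receptor substrates differed in how steady they were. Irs1 (ENSMUSG00000055980, chromosome 1) was at 30.8, 30.2, 43.2 and 31.8 CPM in Homo livers, 34.4, 35.0, 30.9 and 29.9 CPM in Het livers and 28.3 to 44.2 CPM in WT livers (median 38.0), so the Het livers sat inside the WT range and Homo liver 3 stood above its group. Irs2 (ENSMUSG00000038894, chromosome 8) was at 14.3, 36.8, 12.7 and 4.94 CPM in Homo livers and 15, 10.6, 7.61 and 7.11 CPM in Het livers, against 6.67 to 22.9 CPM in WT livers (median 11.6). The highest and lowest livers for Irs2 were both Homo, livers 2 and 4. The Homo over WT fold was 0.914 for Irs1 (0.750 to 1.11) and 1.37 for Irs2 (0.726 to 2.60), each with an adjusted p of 0.998 (edgeR). The log2 value for Irs2 was 0.46, and without Homo liver 2 it was -0.23. Homo liver 2 also had the highest summed cholangiocyte markers, 66.7 CPM against 20.5 to 31.8 CPM in the other Homo livers, 28.3 to 36.2 CPM in Het and 25.5 to 36.1 CPM in WT (6 of 6 markers measured, none at 0 in all libraries, 4 under 1 CPM on average). The part of that difference in the Irs2 value was not tested.

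**Figure D1:**
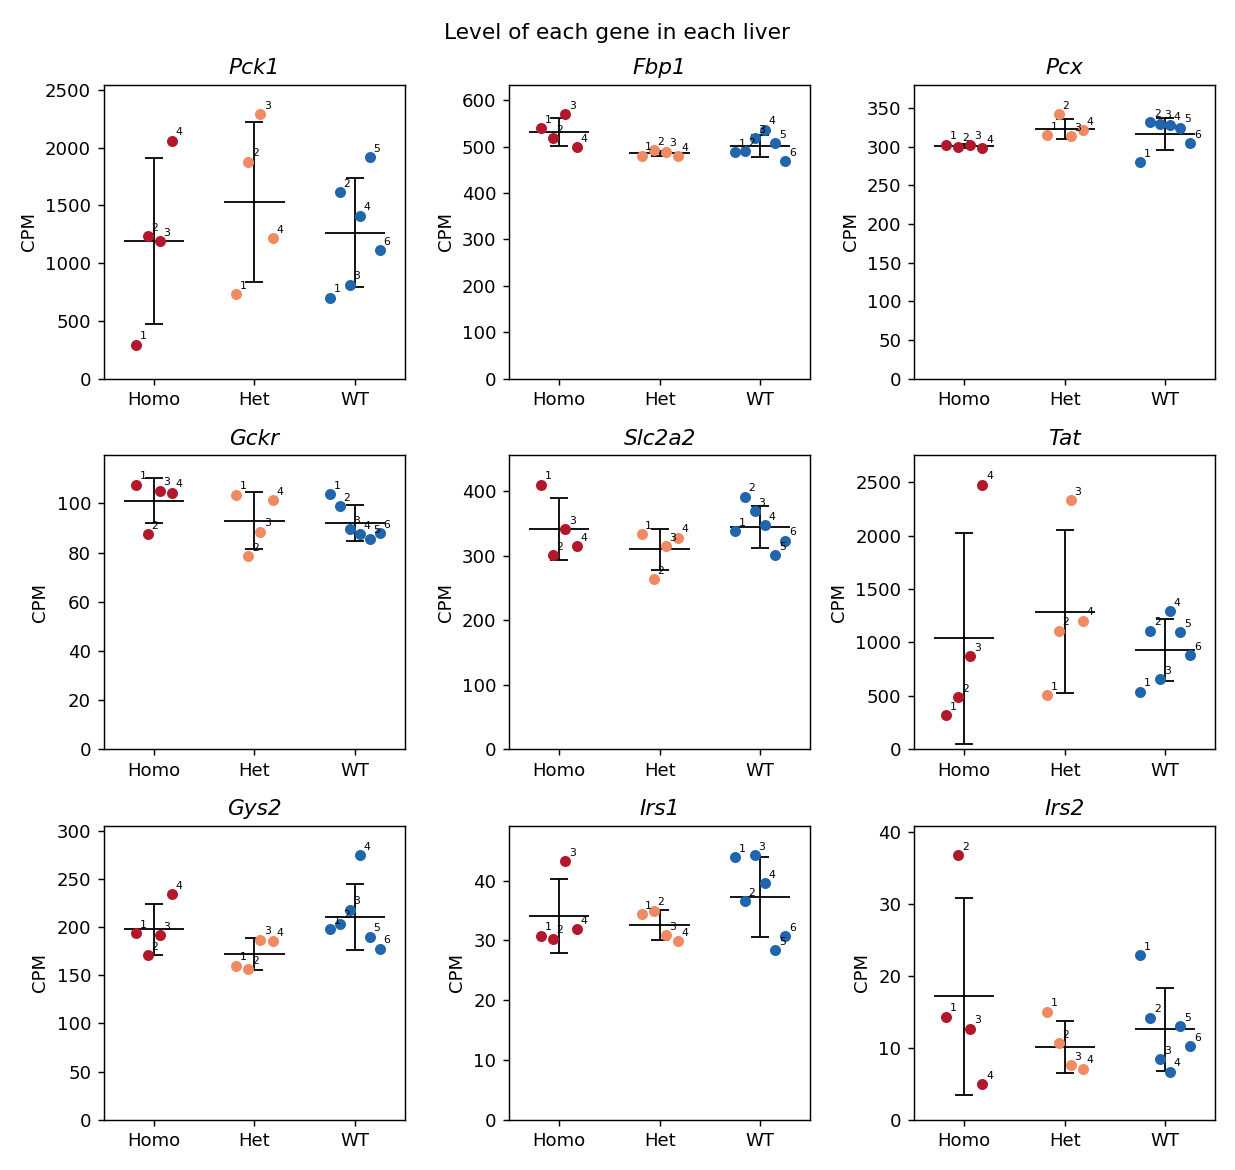
Level of each of the 9 genes in every liver, in CPM on a linear axis from 0, for Homo (4 livers), Het (4) and WT (6). Points are livers with their replicate number, horizontal lines are means and bars are SD. Pck1 and Tat run from 295 to 2289.7 and from 319.8 to 2475 CPM, and Irs2 from 4.94 to 36.8 CPM, while Fbp1 and Pcx stay within narrow bands.

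By the edgeR quasi-likelihood test, 0 of the 9 genes were called at an adjusted p under 0.05 in Homo against WT, against 0.222% of all genes tested. The count was likewise 0 of 9 in Het against WT (0.0556% of all genes), in Homo against Het (0.0309%) and for a trend over WT, Het and Homo (0.185%). At an unadjusted p under 0.05 the counts were 0, 1, 0 and 0, against 4.73%, 4.67%, 5.1% and 4.72% of all genes. DESeq2 also called 0 of 9 in each of the 4. In Homo against WT the fold was above 1 for 4 of 9 genes, with a median log2 fold change of -0.01 against 0.0022 over all genes tested. In Het against WT it was above 1 for 4 of 9, with a median of -0.05 against -7.6e-05. In Homo against Het it was above 1 for 6 of 9, with a median of 0.12 against 0.0018. The comparisons share libraries, so their values do not stand as separate evidence. No gene of the 9 separated Homo from WT (1.15% of all genes did) or Het from WT (1.2%).

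**Figure D2:**
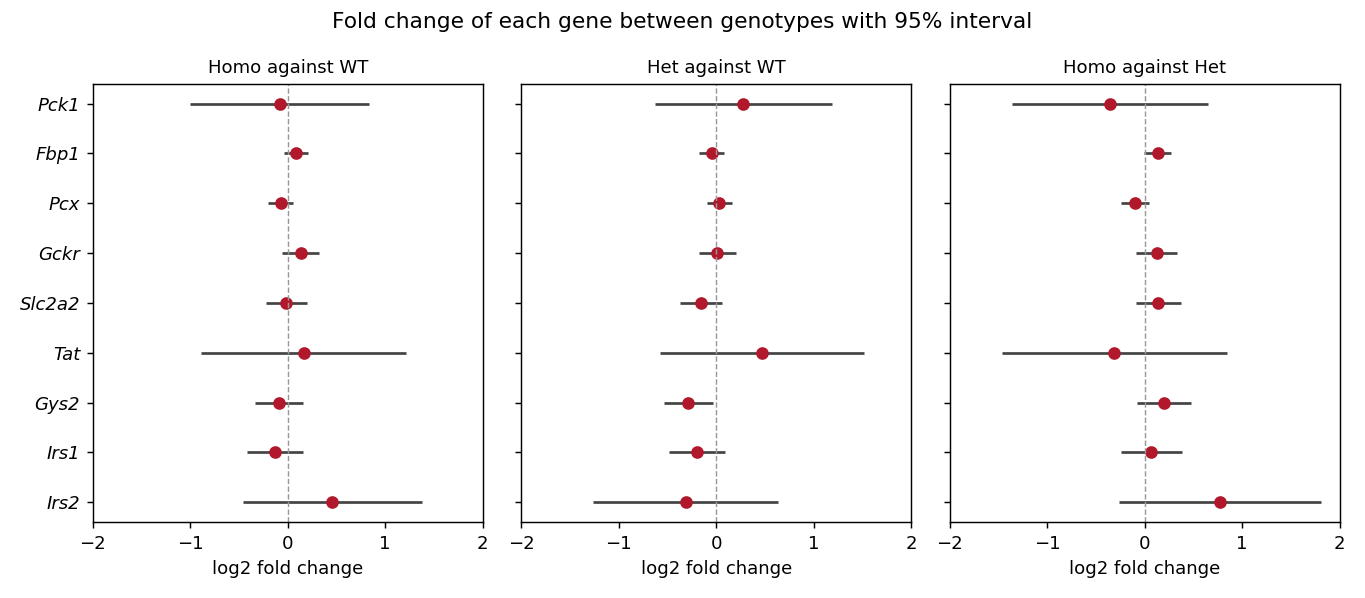
Log2 fold change of each gene for the contrasts of Homo with WT, Het with WT and Homo with Het, with the 95% interval from the edgeR fit. Points are estimates, lines are intervals and the dashed line is no difference. The intervals are narrow for Fbp1 and Pcx and wide for Pck1, Tat and Irs2, for which Homo over WT folds from 0.501 to 1.79, 0.540 to 2.32 and 0.726 to 2.60 lay within the interval.

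How far these data limit a difference varied with the gene. For Fbp1 and Pcx the Homo over WT intervals were 0.971 to 1.16 and 0.869 to 1.04, and the Het over WT intervals 0.887 to 1.06 and 0.933 to 1.12. For Tat a Het over WT fold from 0.673 to 2.87 lay within the interval, a far wider range. All intervals come from 1 fit that shares its estimate of spread over the 3 genotypes. The SD of log2 CPM for Tat was 1.28 in Homo and 0.492 in WT, and intervals with a spread for each genotype were not computed.

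The spread between livers of the same genotype set these genes apart from each other. It is given as the SD of log2 CPM around the genotype mean, ranked among the 7344 genes of at least 10 CPM on average, whose median SD was 0.140. Tat had an SD of 0.882 and exceeded 98.4% of those genes, Pck1 had 0.83 and exceeded 98.2%, and Irs2 had 0.787 and exceeded 98.1%. Irs1 (0.228) exceeded 82.7%, Gys2 (0.191) 74.3%, Slc2a2 (0.159) 61.2% and Gckr (0.142) 52.0%. Pcx (0.0719) and Fbp1 (0.0644) were at the other end, exceeding 4.94% and 2.74%. Counting error at the lowest count gave an SD of 0.152 for Irs2 and at most 0.0599 for the others.

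**Figure D3:**
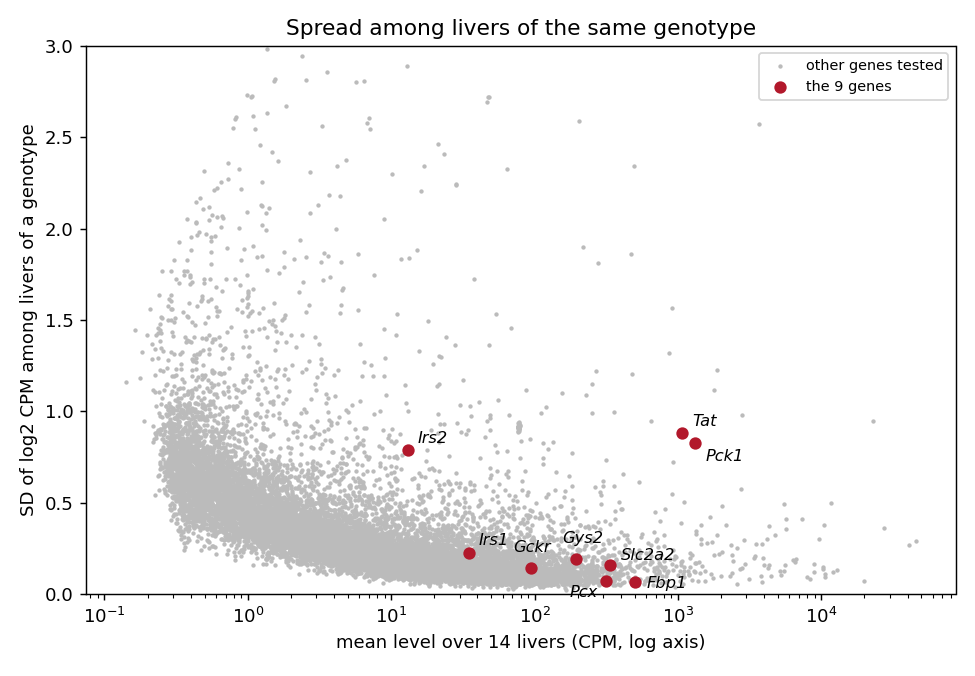
Spread of every gene tested among livers of a genotype (SD of log2 CPM, genotype means removed) against its mean level over 14 livers in CPM on a log axis. The 9 genes are in red and the others in grey, and the axis ends at 3, with 27 genes above it. Tat, Pck1 and Irs2 lie at 0.882, 0.83 and 0.787, far above Pcx and Fbp1 at 0.0719 and 0.0644.

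The wide spread of the 3 genes was present in each genotype. The SD of log2 CPM for Pck1 was 1.20 in Homo, 0.729 in Het and 0.569 in WT. For Tat it was 1.28 in Homo, 0.901 in Het and 0.492 in WT, and for Irs2 1.18 in Homo, 0.493 in Het and 0.622 in WT. The Homo values rested in part on single livers: without Homo liver 1 the Pck1 SD in Homo was 0.444, without Homo liver 4 that of Tat was 0.725, and without Homo liver 2 that of Irs2 was 0.831. Without Het liver 1 the Het values were 0.466 for Pck1, 0.588 for Tat and 0.309 for Irs2. WT livers alone, with the lowest SD on leaving out WT liver 1, kept 0.482 for Pck1, 0.381 for Tat and 0.444 for Irs2. Whether the spread differed between genotypes was not tested. By the numbers in the sample titles, WT 1, Homo 1 and Homo 2 came first, in that order, and Homo 4 came last. In those livers Irs2 was at 22.9, 14.3 and 36.8 CPM, then 4.94 CPM. Tat was at 536, 320 and 487 CPM, then 2475 CPM, and Pck1 at 701, 295 and 1232 CPM, then 2060 CPM. Only livers at the ends of the order are given here, and those between them did not run in order. Pck1 was at 1880 CPM in Het 2, but at 1217 and 1113 CPM in Het 4 and WT 6, which have later title numbers. The Pck1 level of Homo 2 was near the median of 1225 CPM over the 14 livers. What the title numbers stand for is not given, and their part in the spread was not tested.

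Pck1 and Tat moved together from liver to liver. Homo liver 1 was lowest for both, Het liver 1 and WT liver 1 were the lowest of their groups for both, and Het liver 3 and Homo liver 4 were the 2 highest for both. Over the 14 livers, with genotype means removed, Pearson r was 0.859 and Spearman rho 0.820, with permutation p = 0.00177 and 0.00234 (100000 resamples, libraries permuted within genotype). Over the 36 pairs of the 9 genes the adjusted p was 0.0637, so the pair missed the threshold, as did all 36. Without the livers farthest from the median of Pck1, Homo 1 and Het 1, r was 0.768. In the 6 WT livers alone r was 0.915 (exact permutation p = 0.0139). With genotype means left in, r was 0.867 and passed the adjusted threshold.

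Irs2 ran the other way from Gys2 and Tat over the 14 livers, though neither pair passed the adjusted threshold. With Gys2, r was -0.744 and rho -0.723 (permutation p = 0.00548 and 0.0108, adjusted p = 0.0986 for r), and r was -0.574 without Homo 4 and WT 4, the livers farthest from the Gys2 median. With Tat, r was -0.708 and rho -0.574 (permutation p = 0.0276 and 0.0573, adjusted p = 0.248 for r), and -0.654 without Homo 1 and Homo 4. Homo liver 4 had the highest Tat, the highest Gys2 of the Homo group and the lowest Irs2 of all 14. Gckr and Slc2a2, which act at the entry of glucose, had r = 0.692 and rho = 0.666 (permutation p = 0.0142 and 0.0191, adjusted p = 0.170 for r), and r was 0.432 without Homo 2 and Het 2. Tat and Gys2 had r = 0.556 and rho = 0.517 (permutation p = 0.0410 and 0.0865, adjusted p = 0.295 for r), and 0.470 without Homo 1 and Homo 4. Irs1 and Irs2, which share their role in insulin signalling, had r = 0.0104.

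**Figure D4:**
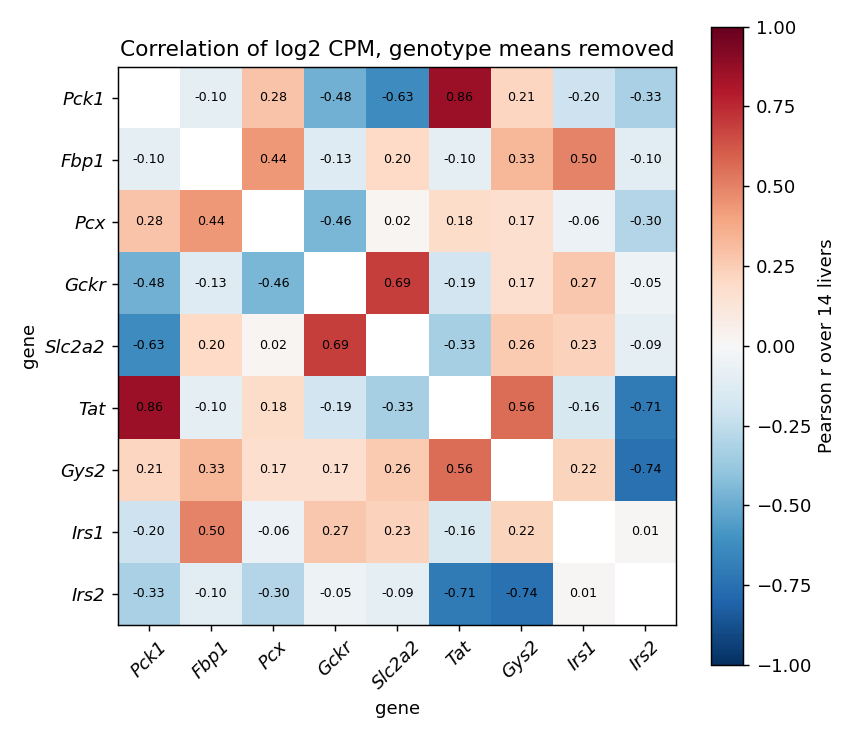
Pearson r between the 9 genes over 14 livers, from log2 CPM with genotype means removed, on a colour scale from -1 (blue) to 1 (red). Pck1 with Tat stands at 0.859, and Irs2 with Gys2 and with Tat at -0.744 and -0.708. None of the 36 pairs passed at an adjusted p under 0.05.

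Each of the 9 genes was also set beside 146 genes of the surrounding pathways, in 1314 pairs, a family added after the data were seen. Permutation takes the livers of a genotype as exchangeable, here and for the pairs of the 9 genes above. A drift shared over the order of the sample titles was not removed. The p-values therefore cannot tell such a drift from a link between the genes. By enumeration of all 414720 orders of the libraries within genotypes, 20 pairs passed at an adjusted p under 0.05. Tat took part in 9 of them, Irs2 in 4, Gys2 in 3, Pck1 in 2, and Pcx and Gckr in 1 each, while Fbp1, Slc2a2 and Irs1 had none. The largest unadjusted p among these pairs was 0.000697. At or under it were 1.52% of the 1314 pairs, against 0.242% of the pairs of the 9 genes with all 16192 other genes tested. For Tat it was 6.16% of the list genes against 0.537% of all genes, for Irs2 2.74% against 0.562%, for Gys2 2.05% against 0.266% and for Pck1 1.37% against 0.13%. For Pcx it was 0.685% against 0.148% and for Gckr 0.685% against 0.247%. These shares are a description, since genes that vary together are not independent. The cut was set by the called list pairs themselves, and the lists were chosen with earlier results known. The other genes include the list genes and were not matched to them by level. Whether list genes exceed other genes was therefore not tested. When the 2 livers farthest from each gene's median were left out, 0 pairs passed by permutation of the 12 that remain. By rho, 9 of the 20 also passed: both of Pck1, 3 of Irs2 (with Nr1d1, Gaa and Slc25a13), and 1 each of Tat (with Klf15), Gys2 (with Acot1), Pcx and Gckr.

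The 9 partners of Tat came from several lists. They held 3 of 10 glucocorticoid-responsive genes (Tsc22d3, Sgk1 and Per1), 2 of 15 clock genes, 2 of 26 genes of glucagon, cAMP and glucocorticoid control, and 1 each of the glycogen, glycolysis and insulin signalling lists; Per1 is in both the first and the second of these. By rho only Klf15 of the 9 passed. Tsc22d3, the glucocorticoid-induced leucine zipper, was at 38.5, 36.9, 102 and 214 CPM in Homo livers, 42.6, 64.5, 163 and 95.2 CPM in Het livers and 56.4 to 156 CPM in WT livers, and Homo 4 and Het 3 were the highest livers for it as for Tat. Its r with Tat was 0.927 and rho 0.895 (exact permutation p = 0.000248 and 0.000555, adjusted p = 0.0326 for r and 0.0663 for rho), and r was 0.874 without Homo 1 and Homo 4. The other positive partners were Cebpb, a transcription factor of the liver fasting response (r = 0.919), the kinase gene Sgk1 (0.914), Foxo1, the insulin-restrained activator of gluconeogenic genes (0.913), Klf15 (0.889), Pfkfb2 (0.887), the glycogen-targeting subunit gene Ppp1r3c (0.882) and the clock gene Per1 (0.852). The adjusted p of r ran from 0.0158 for Cebpb to 0.0458 for Sgk1, and r without the same 2 livers ran from 0.825 for Klf15 to 0.895 for Cebpb. The adjusted p of rho was 0.0404 for Klf15 and ran from 0.0663 for Per1 to 0.151 for Sgk1 in the others. Bhlhe41, a repressor of the clock, ran opposite to Tat (r = -0.887, rho = -0.868, adjusted p = 0.0424 for r and 0.0720 for rho by exact permutation, -0.830 without Homo 1 and Homo 4). It was at 9.28, 7.68, 2.19 and 1.21 CPM in Homo livers 1 to 4.

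Pck1 shared Cebpb with Tat. Their r was 0.801 and rho 0.881 (exact permutation p = 0.000193 for both, adjusted p = 0.0326 for r), and 0.727 without Homo 1 and Het 1. Cebpb was at 47.4, 53.3, 102 and 173 CPM in Homo livers, 56.3, 158, 194 and 143 CPM in Het livers and 50.2 to 133 CPM in WT livers. Igfbp1, an insulin-repressed gene for a secreted binding protein of insulin-like growth factors, was the other partner of Pck1. It was at 5.02, 23.2, 7.86 and 29.2 CPM in Homo livers, 3.13, 13.9, 56.2 and 6.85 CPM in Het livers and 2.46 to 22.7 CPM in WT livers. For this pair r was 0.769 and rho 0.886 (exact permutation p = 0.000521 and 8.2e-05, adjusted p = 0.0403 for r), and r was 0.716 without Homo 1 and Het 1.

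Irs2 followed Nr1d1, the gene of the clock repressor REV-ERBalpha. Nr1d1 was at 44.0, 110.1, 34.6 and 12.4 CPM in Homo livers, 37.7, 19.9, 14.3 and 19.6 CPM in Het livers and 18.1 to 74.9 CPM in WT livers. The highest liver was Homo 2, the next WT 1 and the lowest Homo 4, and for Irs2 these same livers were the highest, the next and the lowest. The pair had r = 0.949 and rho = 0.877 (exact permutation p = 7.96e-05 and 0.000342, adjusted p = 0.0209 for r and 0.04999, just under the threshold, for rho), and r = 0.883 without the livers farthest from the Irs2 median. Irs2 also varied with Gaa, the lysosomal enzyme that degrades glycogen (r = 0.768, rho = 0.930, adjusted p = 0.0158 for r). It varied inversely with Pfkfb1, which sets the level of the glycolytic signal fructose 2,6-bisphosphate (r = -0.896, adjusted p = 0.0372 for r and 0.0720 for rho), and with the mitochondrial carrier Slc25a13 (r = -0.794, adjusted p = 0.0326). Other clock outputs in the same livers included Dbp, at 99.8, 134, 105 and 55.3 CPM in Homo livers, 112, 73.8, 60.2 and 67.8 CPM in Het livers and 57.3 to 121 CPM in WT livers. The hour of collection is not given, and its part in these values was not tested.

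Gys2 followed Acot1, an acyl-CoA thioesterase that rises in fasting. Acot1 was at 4.16, 2.08, 4.38 and 13.4 CPM in Homo livers, 3.55, 4.55, 6.77 and 8.57 CPM in Het livers and 4.33 to 13.7 CPM in WT livers, with Homo 4 and WT 4 the highest, as for Gys2. The pair had r = 0.906 and rho = 0.930 (exact permutation p = 4.82e-05 and 0.000246, adjusted p = 0.0158 for r), and r = 0.918 without Homo 4 and WT 4. Gys2 also varied with the clock output Hlf (r = 0.798, adjusted p = 0.0372 for r and 0.0715 for rho) and the phosphatase gene Dusp1 (r = 0.781, adjusted p = 0.0403 for r and 0.0703 for rho). Pcx varied with Mlx, the partner of the glucose-sensing factor ChREBP (r = 0.874, adjusted p = 0.0158), and r was 0.664 without its 2 farthest livers. Gckr varied with Mlxipl, which encodes ChREBP (r = 0.818, rho = 0.943, adjusted p = 0.0326), and r was 0.846 without its own.

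**Figure D5:**
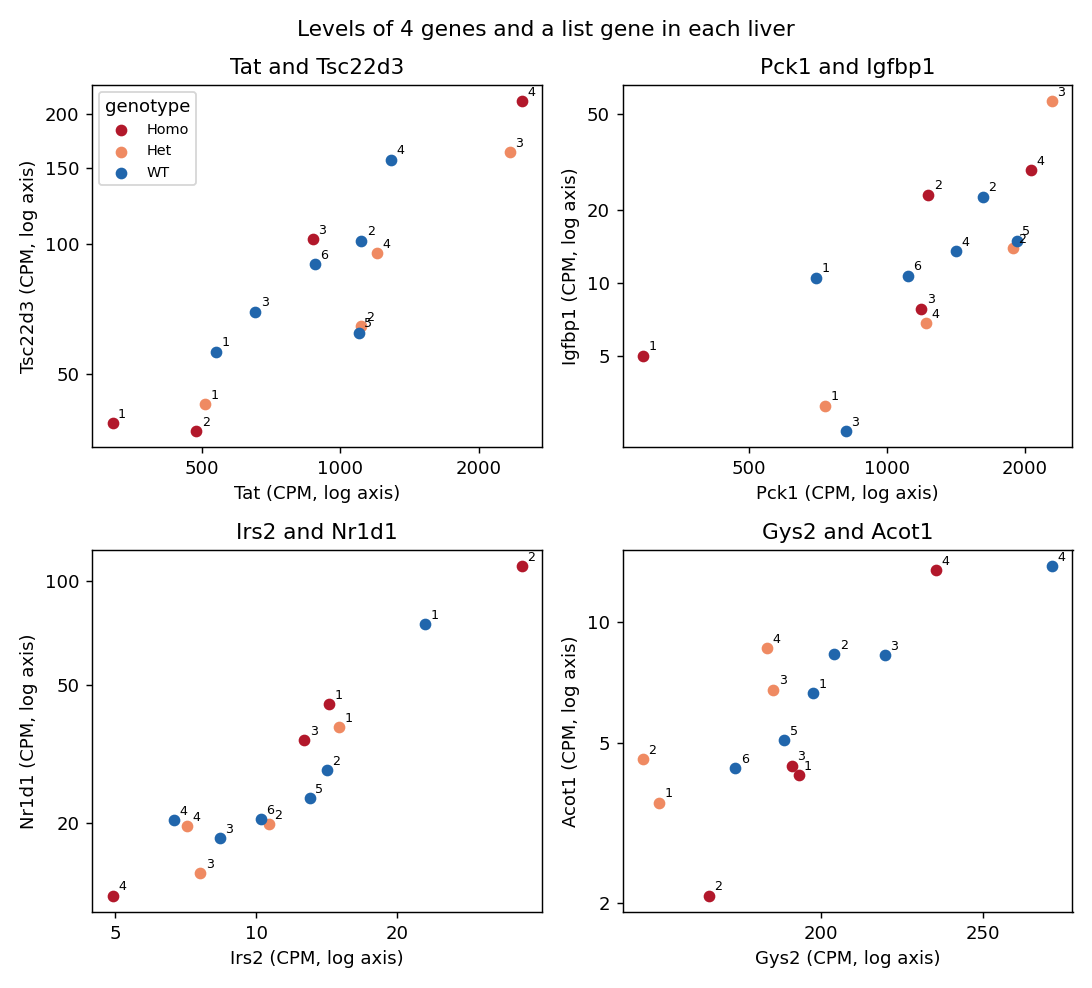
Levels in each liver of Tat and Tsc22d3, Pck1 and Igfbp1, Irs2 and Nr1d1, and Gys2 and Acot1, in CPM with both axes on a log scale. Points are livers, coloured as Homo, Het or WT and labelled with the replicate number. In each panel the levels rise together across livers of all 3 genotypes. The plotted levels keep the genotype means. With those means removed, r of log2 CPM ran from 0.769 for Pck1 and Igfbp1 to 0.949 for Irs2 and Nr1d1.

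The genes most like each of the 9 over the 14 livers were also taken by Pearson r, with genotype means removed. The candidates were 11525 named genes of at least 1 CPM, list genes included. The closest genes are a description with no test, and the livers are the same for all. Tat was closest to Wbp1l (0.949), Klf3 (0.937) and Cep85l (0.930). Irs2 was closest to Nr1d1 (0.949), Copb2 (0.922) and Efna1 (0.916), so Nr1d1 was first among all candidates and not in its list alone. Pck1 was closest to Fkbp14 (0.928), Ubap1 (0.871) and Itpr2 (0.865), and Gys2 to the fatty acid desaturase gene Fads1 (0.908), Acot1 (0.906) and Smarca2 (0.876). Fbp1 was closest to Phldb2 (0.915), Gpsm2 (0.902) and Ephx1 (0.857), Gckr to Sae1 (0.898), Aamdc (0.887) and Ndufa6 (0.877), Slc2a2 to Slc47a1 (0.899), Fras1 (0.899) and Czib (0.883), and Irs1 to Ppdpf (0.865), Tcf7l2 (0.864) and Rubcn (0.850). For Pcx the 3 closest were copies of 5S ribosomal RNA, n-R5s106 (0.967), n-R5s118 (0.930) and n-R5s130 (0.928), near-identical genes among which the counting could split reads, so their values are uncertain.

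The other genes of the pathway showed no difference between genotypes that passed the test. Of the 146 genes tested in 9 lists, edgeR called 0 in each contrast. For Homo over WT, Het over WT and Homo over Het the smallest adjusted p were 0.998, 0.998 and 0.916. At an unadjusted p under 0.05 there were, in that order, 2 (1.37%), 5 (3.42%) and 6 (4.11%), against 4.73%, 4.67% and 5.1% of all genes tested. DESeq2 called 0 in each. The fold was above 1 for 69, 68 and 67 of the 146.

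Of 25 further genes of the gluconeogenic path and its substrates, 9 had a fold above 1 in Homo against WT and 12 in Het against WT, with median log2 fold changes of -0.03 and -0.0020. Mpc1, a subunit of the mitochondrial pyruvate carrier, was at 81.1 ± 5.49 CPM in Homo, 79.6 ± 1.83 in Het and 88.1 ± 4.28 in WT. Slc25a13, a mitochondrial aspartate and glutamate carrier, was at 171 ± 11.8 CPM in Homo, 185 ± 5.09 in Het and 185 ± 15.9 in WT. These are among the genes of the list with the smallest p, and none passed the adjusted threshold.

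Of 16 glycogen genes, 10 had a fold above 1 in Homo against WT and 7 in Het against WT. Ppp1r3c was at 40.6 ± 27.4 CPM in Homo, 40.1 ± 31.9 in Het and 24.3 ± 7.65 in WT, with SDs in Homo and Het wider than their difference from WT. Gsk3b, the kinase that inhibits glycogen synthase, was at 61.8 ± 1.33 CPM in Homo, 66.6 ± 1.16 in Het and 67.1 ± 4.75 in WT. Ugp2, which makes UDP-glucose, was at 153 ± 8.29 CPM in Homo, 136 ± 18.6 in Het and 152 ± 9.78 in WT. Of 14 genes of glycolysis and sugar entry, 6 had a fold above 1 in Homo against WT and 4 in Het against WT, and Pklr, the liver pyruvate kinase, was at 442 ± 199.7 CPM in Homo, 285 ± 105 in Het and 369 ± 51.5 in WT.

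Of 25 insulin signalling genes, 13 had a fold above 1 in Homo against WT, 15 in Het against WT and 4 in Homo against Het. Insig2, which an insulin-repressed liver promoter drives, was at 47.7 ± 12.9 CPM in Homo, 68.1 ± 18.9 in Het and 49.3 ± 6.4 in WT. Akt2, the main insulin-responsive AKT of liver, was at 55.7 ± 1.88 CPM in Homo, 59.4 ± 2.82 in Het and 55.3 ± 2.38 in WT. Of 26 genes of glucagon, cAMP and glucocorticoid control, 13 had a fold above 1 in Homo against WT and 16 in Het against WT. Ppargc1a, a coactivator of gluconeogenic genes, was at 11.5 ± 4.94 CPM in Homo, 15.6 ± 4.87 in Het and 11.4 ± 1.69 in WT, and Nr0b2, the repressor SHP, at 22.0 ± 10.4 CPM in Homo, 10.7 ± 3.19 in Het and 15.9 ± 7.25 in WT.

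Of 10 glucocorticoid-responsive genes, the fold was above 1 for 3 in Homo against WT and 8 in Het against WT. Cdkn1a, a cell cycle inhibitor, was at 3.96 ± 5.50 CPM in Homo, 3.09 ± 3.14 in Het and 1.25 ± 0.408 in WT, with the SD of Homo larger than its mean. Of 10 fasting-responsive genes, 4 had a fold above 1 in Homo against WT and 2 in Het against WT. Of 11 fed, insulin-driven lipogenic genes, 7 had a fold above 1 in Homo against WT, 1 in Het against WT and 10 in Homo against Het, with median log2 fold changes of 0.07, -0.25 and 0.32. In Homo against Het the gluconeogenic list had 10 of 25 above 1, glycogen 9 of 16, glycolysis 7 of 14 and glucagon, cAMP and glucocorticoid control 11 of 26. The glucocorticoid-responsive and fasting-responsive lists had 4 of 10 each, and the clock list 11 of 15. Genes of a list are not independent, and no list was tested as a set. Elovl6, a fatty acid elongase, was at 257 ± 132 CPM in Homo, 170.1 ± 45.1 in Het and 249.7 ± 31.2 in WT. Of 15 clock genes, 8 had a fold above 1 in Homo against WT and 5 in Het against WT, and Nr1d1 averaged 50.3 ± 42.0 CPM in Homo, 22.9 ± 10.2 in Het and 31.0 ± 21.8 in WT, so its groups overlapped as those of Irs2 did.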

How the data were processed

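Whole-liver RNA was prepared with Trizol and RNeasy, and libraries with a NuGen Ovation mouse kit, per the labels' protocols. The deposited table holds the authors' estimated counts per gene, and the submitters' processing notes name STAR, Salmon and GRCm39. The sources used here do not say what each tool did, which annotation was used or whether strand was counted. Of the values per library, 6.36% to 8.59% were not whole (tolerance 0.01), and all were rounded.

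Genes were kept with filterByExpr (count minimum 10, total minimum 15) in edgeR 4.0.16 under R 4.3.3. TMM-scaled counts of all 14 libraries entered 1 quasi-likelihood fit, two-sided, with Benjamini-Hochberg adjustment over 16201 genes and calls at an adjusted p under 0.05. A second fit took genotype as a step for the trend. DESeq2 1.42.0 was an alternative. Single genes were compared by exact permutation of mean log2 CPM (prior count 2), two-sided. Correlations used log2 CPM with genotype means removed, permuting libraries within genotype.

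The members and the pathway and marker lists were chosen with earlier results of these data known. From each list the text names genes from the 2 with the smallest p in Homo and in Het against WT, among those of at least 1 CPM; genes named for a correlation were chosen after their values were seen. Some genes that this rule picks are not reported here. Chromosomes and exon lengths came from GENCODE M21 on GRCm38 and promoters from RefSeq on GRCm38.p6, another build than that of the counts. A planned search of the IRS proteins was not run. P-values rest on the variation between these mice. The fold intervals from the edgeR fit take in that variation as well as counting error. Alternatives were other scalings, filters and tools, a replicate block, fits of 2 genotypes and leaving out each library. The smallest chi-square per degree of freedom between libraries of a genotype was 29, so each counted as 1 sample. Replicate numbers do not pair the libraries.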

Additional observations from a re-analysis of the deposited data

Results flagged for a closer look

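Each of the 9 genes was examined in each genotype for a liver standing apart, 27 groups in all, and 2 were flagged, where chance flags about 1 group in 20. In Homo, Gckr, the inhibitor of glucokinase, was 87.4 CPM in liver 2, and the nearest other Homo liver was at 104 CPM. That gap was 0.84 of the range of the Homo group, above the critical value for 4 samples. In Homo, Irs1, an insulin receptor substrate, was 43.2 CPM in liver 3, and the nearest other Homo liver was at 31.8 CPM, a gap of 0.876 of the range. Both values lie within the range of the WT livers for the same gene, 85.7 to 104 CPM for Gckr and 28.3 to 44.2 CPM for Irs1.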

How the results depend on the processing

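No gene of the 9 was called in any comparison under any alternative run. Of the 27 log2 fold changes, 18 kept their sign throughout. Scaled by library totals alone, Slc2a2 in Homo over WT was 0.0265 and Gckr in Het over WT -0.0105. Replicate numbers correlated from -0.0918 to 0.149 over the 12 same-numbered pairs of libraries (2 of 12 over 0.1, best match of the same number in 6 of 24), so they share only a number; with them as a block, Tat in Homo over WT was -0.13 and Gckr in Het over WT -0.0368, and the genes called numbered 19 in Homo against WT, 2 in Homo against Het and 11 for the trend. Leaving out each library in turn, the log2 fold changes that turned ran from -0.48 to 0.24 for Pck1, -0.73 to 0.46 for Tat, -0.23 to 0.76 for Irs2, -0.18 to 0.0022 for Gys2 and -0.115 to 0.0407 for Slc2a2 in Homo over WT, from -0.0469 to 0.0855 for Gckr and -0.0062 to 0.0441 for Pcx in Het over WT, and from -1.20 to 0.14 for Tat and -0.0722 to 0.12 for Irs1 in Homo over Het. Over all genes, 36 were called in Homo against WT (23 without Homo 1 to 40 without Het 1), 9 in Het against WT (8 to 11), 5 in Homo against Het (4 to 7) and 30 for the trend (19 without WT 1 to 33). DESeq2 called 61, 32, 15 and 54, no low-count filter gave 23 in Het against WT, and a fit of Homo and Het alone gave 2. With genotype means left in, 1 pair of the 9 genes passed, against 0, and 38 pairs with list genes, against 20; 0 of those passed without the 2 farthest livers, where 12 livers remain, and 9 by rho. Except where named, the cause was not tested. Irs2, the gene with the fewest counts, had the largest counting error of the 9. That error was an SD of 0.152 at its lowest count, against 0.787 among livers of a genotype.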

Other observations

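Gckr levels left a gap over the 14 livers, which was noticed afterwards and not tested. In 3 Homo, 2 Het and 2 WT livers they were 99.0 to 108 CPM, and in 1 Homo, 2 Het and 4 WT livers 78.6 to 89.5 CPM. Within the lower range Het 2, at 78.6 CPM, also stood below the next liver, WT 5, at 85.7 CPM. Mlxipl, which encodes ChREBP, was highest in WT liver 1 at 524.6 CPM, a liver in the upper Gckr range, and lowest in Het liver 2 at 306.6 CPM, the liver with the lowest Gckr.

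Bmal1, a clock activator, was at 0.957, 2.17, 1.13 and 3.95 CPM in Homo livers 1 to 4, 1.96, 1.96, 4.66 and 4.44 CPM in Het livers and 1.57 to 3.38 CPM in WT livers. Insr, the insulin receptor gene, stayed between 143 and 174 CPM in all 14 livers while Irs2 spanned 7.44-fold.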
